A study of Mus musculus with 3 samples.

Results

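The genes described here are the ligands, receptors and Smads of the Wnt, TGF-beta and BMP, Notch and FGF pathways, compared between mouse liver and mouse spleen RNA. Genes were taken by name: a probe was a member when the platform annotation gave it a single gene symbol starting with Wnt, Fzd, Bmp, Tgfb, Smad, Notch, Dll, Jag, Gdf, Inhb, Acvr or Fgf and carrying a number, subunit or receptor ending. This gave 173 of the 16281 probes, standing for 102 of the 10698 genes named by a single symbol: 25 of the Wnt pathway, 42 of TGF-beta and BMP signalling, 8 of Notch and 27 of FGF signalling. The rule used names only, but it was chosen with earlier results of these data known. Bmp1, which encodes a procollagen protease, and Fgfr1op2, which is no FGF receptor, were taken by their names only.

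The series holds 3 arrays, each carrying a commercial spleen RNA in the green dye (Cyanine-3) and a commercial liver RNA in the red dye (Cyanine-5), copied into cRNA with 1 round of amplification. The labels name the same catalogue product per tissue on all 3 arrays and give no strain, sex, age or number of mice, so the p-values describe variation among repeat arrays of 1 pair of RNAs and say nothing of variation among mice; that variation may be technical. The dyes were never exchanged, so a difference between tissues and a preference of a probe for one dye cannot be told apart. Each value is a log2 ratio read as liver over spleen, so that 1 is 2-fold higher in liver and -1 is 2-fold higher in spleen. An exact 0 in the table was taken as no measurement.

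The direction is likely rather than stated, and was read from marker genes. Of 8 hepatocyte genes, 4 had a value on all arrays, and all 4 (Ahsg, F2, Otc and Pck1) were higher in liver, at means of 3.76 to 5.70. Alb and Serpina1b were measured on array 2 only, at 6.16 and 4.62. Of 8 lymphocyte genes, 7 were measured and 6 were higher in spleen, with Btk lowest at -4.01, while Cd3e stood at 0.13 and did not pass. All 5 measured erythroid genes were higher in spleen. Endothelial markers showed no common direction, with Emcn higher in liver (0.44), Tek higher in spleen (-0.34) and Cdh5 and Kdr not past the test. Of 8 mesenchymal markers, 4 were higher in spleen, led by Tagln at -2.35, and 1, Dcn, was higher in liver at 1.52. These are whole tissues, so fewer cells of a type and less RNA per cell cannot be told apart, and the part of cell makeup in the results below was not tested.

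In textbook terms, the 4 pathways carry signals between neighbouring cells. Wnt proteins bind Frizzled receptors and act largely through beta-catenin, which sets the zones of the liver lobule. Ligands of the TGF-beta superfamily, among them activins, BMPs and GDFs, bind paired serine/threonine kinase receptors that phosphorylate Smad proteins. Notch receptors are cut after meeting Delta or Jagged ligands on an adjacent cell, and the freed fragment acts in the nucleus with Rbpj; in spleen this directs marginal zone B cells. FGFs bind receptor tyrosine kinases, and the hormone-like FGFs also need a Klotho co-receptor, beta-Klotho in liver.

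Of the 102 genes, 96 had at least 1 probe measured on all 3 arrays, and 143 of the 173 probes were measured on all arrays. Another 27 probes were measured on 1 or 2 arrays and 3 on none. By limma's test, 23 of the 96 genes read higher in liver and 11 read higher in spleen (adjusted p under 0.05, Benjamini-Hochberg over all 9803 genes). Over all 9803 genes the shares were 25.3% toward liver and 27.4% toward spleen, 52.8% together. The members' share was 35.4%, below that of all genes. At 2-fold or more, 5 members lay toward liver and 3 toward spleen, where 9.21% and 8.4% of all genes were (17.6% together). Without Bmp1 and Fgfr1op2, taken by their names only, 22 of 94 members passed toward liver and 10 toward spleen (34.0% together). At 2-fold or more these were 5 and 2. The members' median absolute log2 ratio was 0.21 against 0.31 over all genes, while the median SD between arrays was 0.13 against 0.15. Their median signed ratio was 0.13 against 0.02, and 63 of the 96 lay above 0 (65.6% against 51.9% of all genes).

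**Figure D1:**
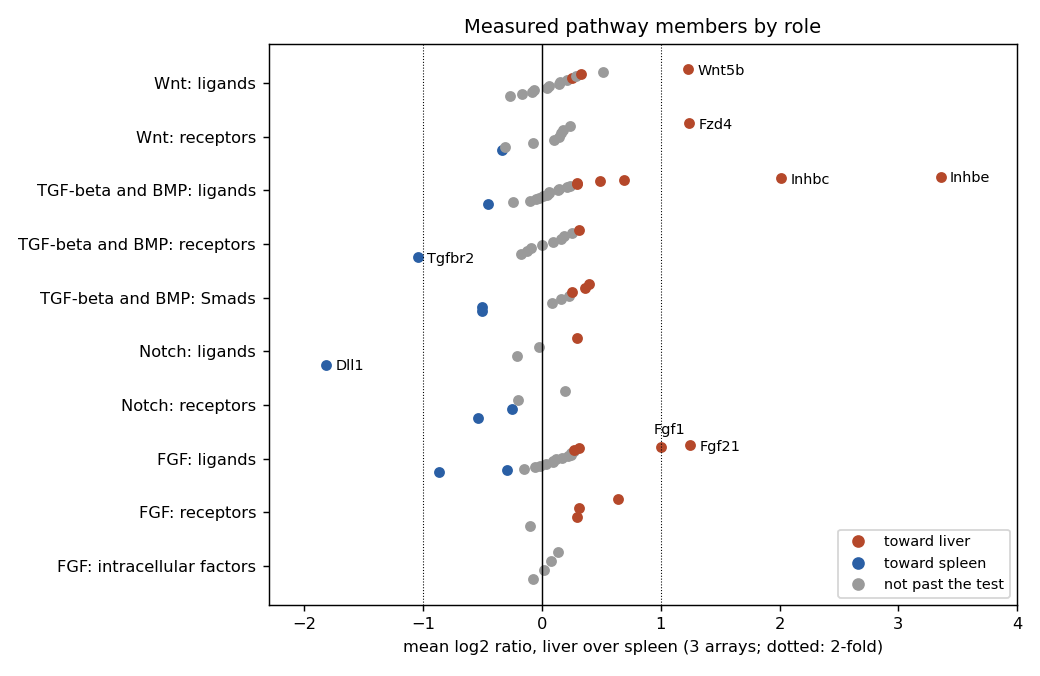
Mean log2 ratio of liver over spleen for 94 measured members, 1 point per gene, in rows by pathway and role; Bmp1 and Fgfr1op2 are left out. Red points passed limma's test toward liver and blue points toward spleen, grey points did not pass, and dotted lines mark 2-fold. Most points lie within 2-fold of 0, and Inhbe at 3.36 and Dll1 at -1.82 mark the ends.

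Most of these genes therefore read close to 1:1 in the 2 RNAs. The 62 members that did not pass had means from -0.31 (Fzd1) to 0.52 (Wnt2), and 34 of them had the same sign on all arrays. The deposited ratios hold no intensities, so an equal level in both tissues and a signal near background in both cannot be told apart for such a gene. All 34 members past the test had the same sign on all 3 arrays. The counts lean on the number of arrays: 10, 10 and 15 members passed toward liver without array 1, 2 or 3, and 8, 8 and 9 toward spleen. The shares of all genes fell as well, to 18.6%, 19.0% and 22.0% toward liver. Toward spleen they fell to 22.2%, 21.5% and 25.7%. Of the 34, 16 passed whichever array was left out, and these include all 8 members at 2-fold or more.

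Of the 38 measured genes of TGF-beta and BMP signalling, 11 passed toward liver and 4 toward spleen, 39.5% together against 52.8% of all genes, with a median of 0.14. Those toward liver include Bmp1, taken by its name only. The largest gene means of all members in either direction were those of 2 activin subunits. Inhbe, the activin beta E subunit, known as a protein secreted by hepatocytes, was 10.3-fold higher in liver, and Inhbc, the beta C subunit, 4.04-fold higher. The genes neighbour each other on chromosome 10, with 0 genes of the RefSeq table (GRCm38.p6) between them. Inhbe stood at rank 130 and Inhbc at rank 415 of the 9803 genes toward liver.

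Inhbe was measured by 2 probes. The stronger read 3.85, 3.29 and 4.11 on arrays 1, 2 and 3, and the other 3.22, 2.60 and 3.09. Array 2 was lowest on both, and every value lay far above 0; the gene mean was 3.36 ± 0.36 (SD, n = 3 arrays, adjusted p = 3.6e-05). Inhbc was measured by 3 probes, which read 2.17, 2.43 and 2.21 on array 1 and 2.55, 2.56 and 2.75 on array 2. On array 3 the same probes read 1.21, 1.24 and 1.01. The Inhbc probes thus differed less from each other than from array to array, and array 3 was the low one, where Inhbe had its highest gene value (3.60). The Inhbc mean was 2.01 ± 0.77 (n = 3, adjusted p = 0.00227), and 2.45 without array 3.

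The promoters of these 2 genes are shown with that of Fgf21, the FGF hormone of liver described below, because these are 3 of the 5 members at 2-fold or more toward liver and all 3 are known as liver-secreted factors. Each run is the 250 bases before the RefSeq start (GRCm38.p6), 5′ to 3′ on the gene's strand, which is the minus strand for all 3. They lie at chr10:127351849-127352098 (Inhbe), chr10:127370549-127370798 (Inhbc) and chr7:45615491-45615740 (Fgf21). Capitals mark TTGCATCA, the letters of a response element known to be bound by C/EBP and ATF proteins under stress. They also mark TATAAA, the letters of a TATA box.
Inhbe: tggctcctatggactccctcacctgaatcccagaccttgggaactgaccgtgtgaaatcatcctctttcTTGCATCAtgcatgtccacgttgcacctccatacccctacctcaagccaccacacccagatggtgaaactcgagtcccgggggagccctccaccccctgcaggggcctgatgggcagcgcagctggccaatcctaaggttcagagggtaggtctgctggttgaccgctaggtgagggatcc
Inhbc: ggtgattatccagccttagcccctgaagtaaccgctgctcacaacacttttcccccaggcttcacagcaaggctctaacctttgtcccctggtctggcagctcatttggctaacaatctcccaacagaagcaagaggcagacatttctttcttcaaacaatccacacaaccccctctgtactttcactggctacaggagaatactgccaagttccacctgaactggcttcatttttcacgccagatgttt
Fgf21: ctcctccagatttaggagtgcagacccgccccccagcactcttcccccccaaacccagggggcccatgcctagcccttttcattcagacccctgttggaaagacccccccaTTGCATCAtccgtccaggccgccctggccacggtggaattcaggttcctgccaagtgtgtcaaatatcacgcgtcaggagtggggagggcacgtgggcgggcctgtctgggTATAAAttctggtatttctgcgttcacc

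TTGCATCA was picked after these sequences had been read. It began at position -181 from the Inhbe start and at -139 from the Fgf21 start, and was not in the Inhbc window. Among the 70 measured members with a promoter in the table, Inhbe and Fgf21 were the 2 with a match on either strand, and 0.791% of all 32851 promoters held one. TATAAA, also picked after reading, began at -28 from the Fgf21 start and occurred in 12.4% of all promoters. A forkhead motif (TGTTTAC, 3.17% of all promoters), an HNF4 motif (CAAAGTCCA, 0.384%) and a C/EBP motif (TTGCNNAA, 9.56%), searched on both strands, were in none of the 3 windows, and no match overlapped another. A match describes the letters only.

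**Figure D2:**
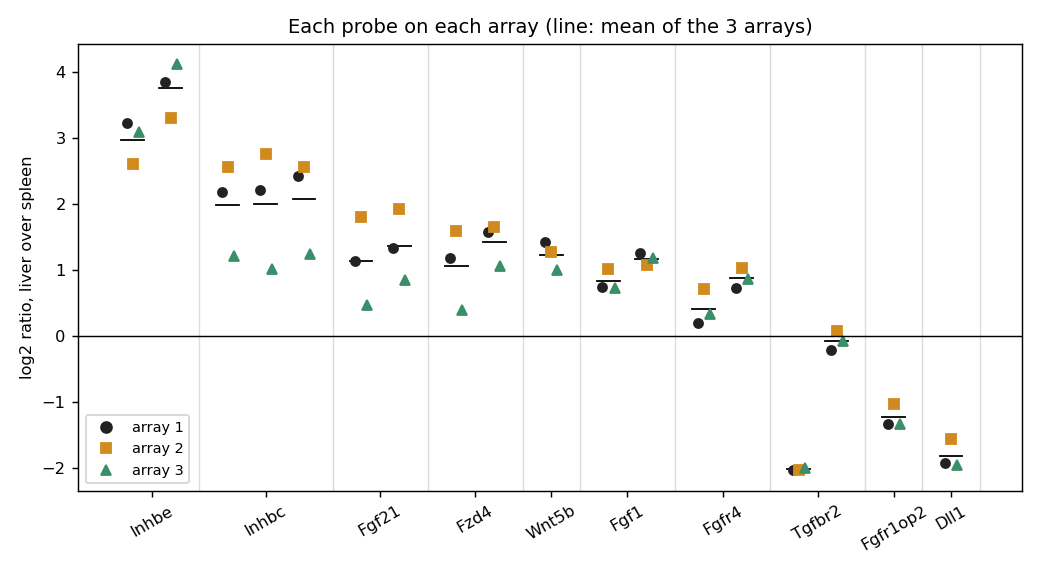
Log2 ratio of liver over spleen (vertical axis) for each probe measured on all arrays, for the 8 members at 2-fold or more with Fgf1 and Fgfr4; symbols are the 3 arrays and lines their mean. The Inhbc, Fgf21 and Fzd4 probes are all lowest on array 3, and the Tgfbr2 probes stand at -2.02 and -0.07.

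Among the other TGF-beta superfamily ligands, differences were small. Inhba, the activin beta A subunit, read 0.92, 0.93 and 0.22 on the 3 arrays (mean 0.69 ± 0.41, adjusted p = 0.0161), array 3 again being lowest. Gdf2, the circulating ligand BMP9 that liver is known to make, read 0.73, 0.54 and 0.21 (mean 0.49 ± 0.26, adjusted p = 0.0174). Bmp2 at 0.29 and Tgfb2 at 0.30 passed narrowly, with adjusted p-values of 0.0476 and 0.0457. Tgfb1, the TGF-beta form abundant in leukocytes and platelets, was the ligand higher in spleen, at -0.43, -0.69 and -0.26 (mean -0.46 ± 0.22, adjusted p = 0.0152). Inhba, Gdf2, Bmp2 and Tgfb1 did not pass without array 1 or without array 2, and Tgfb2 without any 1 of the arrays. The other 12 measured ligands, among them Inhbb, Bmp4, Bmp6, Bmp7 and Gdf11, lay between -0.25 (Gdf1) and 0.24 (Gdf11) and did not pass. Bmp6, a BMP known to drive hepcidin, was at 0.04 ± 0.03. Bmp1, the protease taken by its name, was at 0.67 ± 0.09 (adjusted p = 0.00122).

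Of 10 measured receptors of this family, 1 passed in each direction, or 2 of 10, where 52.8% of all genes passed. Tgfbr2, the receptor that binds TGF-beta itself, was 2.06-fold higher in spleen on the average of its probes (-1.12, -0.98 and -1.04, adjusted p = 0.000205). Its 2 probes differed: one read -2.03, -2.03 and -2.00 and the other -0.21, 0.08 and -0.08. The gene mean therefore describes neither probe. Its partner Tgfbr1 stood at 0.18 ± 0.02 and did not pass. Bmpr1a, a BMP receptor, was at 0.31 ± 0.15 (adjusted p = 0.0325) and did not pass without array 1 or array 2 (adjusted p up to 0.145). The other receptors, Bmpr1b, Bmpr2, Tgfbr3, Acvr1, Acvr2a, Acvr2b and Acvrl1, lay between -0.17 and 0.25 and did not pass. The activin receptors Acvr1, Acvr2a and Acvr2b averaged -0.0008, 0.16 and 0.25, against 3.36 and 2.01 for the subunits Inhbe and Inhbc. The 2 Acvr2a probes stood at 0.35 and -0.03, those of Acvr2b at 0.38 and 0.12, and those of Acvr1 on both sides of 0, at 0.21 and -0.21. Acvr1b, another activin receptor, had no probe measured on all arrays and is missing from this contrast.

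The Smads split. Smad2, which carries TGF-beta and activin signals, read -0.50, -0.34 and -0.68 (mean -0.51 ± 0.17, adjusted p = 0.00697). Smad5, which carries BMP signals, read -0.32, -0.43 and -0.77 (mean -0.51 ± 0.24, adjusted p = 0.0126). Both were higher in spleen, and the probes of each gave nearly the same mean, -0.54 and -0.48 for Smad2 and -0.51 and -0.50 for Smad5. Smad1, also of the BMP branch, was higher in liver at 0.44, 0.37 and 0.38 (mean 0.39 ± 0.04, adjusted p = 0.00734). Smad4, the shared partner, averaged 0.36 ± 0.12 and Smad3 0.25 ± 0.05. Smad4 did not pass without array 1 or array 3, and Smad3 without any 1 of the arrays (adjusted p up to 0.147). The inhibitory Smad7 was at 0.16 ± 0.18, and Smad9 at 0.09 ± 0.04, and neither passed. Smad6, the other inhibitory Smad, averaged 0.23 ± 0.19 over a probe at 0.69, 0.83 and 0.78 and another at -0.51, 0.06 and -0.48.

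Of 23 measured Wnt genes, 4 passed toward liver and 1 toward spleen, the lowest share past the test of the 4 pathways (21.7% against 52.8% of all genes). The median was 0.15. Wnt5b, a Wnt known mainly for signals that bypass beta-catenin, was 2.34-fold higher in liver, reading 1.42, 1.27 and 1.00 (mean 1.23 ± 0.22, adjusted p = 0.000363). On arrays 1 and 2 a further Wnt5b probe gave 0.73 and 1.06, and it was listed at 0 on array 3. Fzd4, a Frizzled receptor that also binds norrin, was 2.36-fold higher in liver. Its probes read 1.57, 1.65 and 1.06, and 1.18, 1.58 and 0.39, with array 3 lowest on both (gene mean 1.24 ± 0.46, adjusted p = 0.00264).

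The other Wnt ligands had means under 2-fold. Wnt8a at 0.33 ± 0.13 and Wnt2b at 0.25 ± 0.08 passed (adjusted p = 0.0233 and 0.0414). Wnt8a did not pass without array 1 or array 2, nor Wnt2b without any 1 of the arrays. A further Wnt8a probe, measured on array 2 only, gave -0.22. With exact 0 kept as a ratio of 0, Wnt8a averaged 0.13 and did not pass (adjusted p = 0.204). Wnt2, known as a Wnt of liver sinusoidal endothelium, read 0.32, 1.09 and 0.15, over 2-fold on array 2, and with a mean of 0.52 ± 0.50 did not pass (adjusted p = 0.0685). The remaining 10 ligands lay between -0.27 (Wnt1) and 0.29 (Wnt4). Among the Frizzleds, Fzd2 was higher in spleen at -0.33 ± 0.12 (adjusted p = 0.0214), but not past the test without array 2 or array 3 (adjusted p up to 0.105), and its 3 probes ranged from -0.63 to -0.13. Fzd1, Fzd3, Fzd5, Fzd6, Fzd7, Fzd8 and Fzd9 lay between -0.31 and 0.24 and did not pass. Wnt3a and Wnt8b had no probe measured on all arrays, as was so for Acvr1b, Bmp10, Bmp15 and Tgfb3, and none of these 6 genes read 2-fold on any array. On arrays 2 and 3, Wnt3a gave 0.23 and 0.31.

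Notch was the one pathway with a median toward spleen, at -0.21 over 8 genes. Of these, 3 passed toward spleen and 1 toward liver, or 4 of 8, where 52.8% of all genes passed. The median was below 0 on arrays 1 and 2 (-0.24 and -0.27) and above it on array 3 (0.06). Dll1, the Delta ligand known to act on marginal zone B cells, had the lowest gene mean of all members. It read -1.93, -1.56 and -1.96 (mean -1.82 ± 0.22, 3.52-fold, adjusted p = 9.11e-05), which is rank 205 of 9803 toward spleen. The other Dll1 probe gave smaller ratios, -0.75 and -0.77 on arrays 1 and 3, with 0 listed for array 2. The Dll1 mean, fold and rank therefore rest on 1 probe. With probes on at least 2 arrays the Dll1 mean was -1.42, and with exact 0 kept it was -1.16. By limma's test Dll1 passed in both (adjusted p = 0.000126 and 0.00885). Dll4, the Delta ligand of endothelium, was slightly higher in liver at 0.25, 0.36 and 0.27 (adjusted p = 0.0236), and did not pass without any 1 of the arrays (adjusted p up to 0.11). Jag1 read 0.15, -1.01 and 0.24, its array 2 value standing alone, and Jag2 averaged -0.03 ± 0.18; neither passed.

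Among the receptors, Notch3, known for its role in vascular smooth muscle, read -0.52, -0.56 and -0.54 (mean -0.54 ± 0.02, adjusted p = 0.00204). Notch4, an endothelial Notch, was at -0.26 ± 0.06 (adjusted p = 0.0365) and did not pass without any 1 of the arrays. Notch1 read -0.28, -0.34 and 0.01, and Notch2, the receptor of marginal zone B cells, 0.20, 0.27 and 0.12; neither passed. Of the 8 mesenchymal markers, which include smooth muscle genes, 4 passed toward spleen and 1 toward liver, from -2.35 (Tagln) to 1.52 (Dcn) with a median of -0.22, and their part in the Notch3 value was not tested.

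Of 27 measured FGF genes, 7 passed toward liver and 3 toward spleen, 37.0% together against 52.8% of all genes, with a median of 0.12. Those toward spleen include Fgfr1op2, taken by its name only. Fgf21, a hormone that liver is known to release on fasting, was 2.38-fold higher in liver. Its probes read 1.33, 1.93 and 0.84, and 1.14, 1.79 and 0.47, both highest on array 2 and lowest on array 3 (gene mean 1.25 ± 0.60, adjusted p = 0.00625). Fgf1, a growth factor that binds every FGF receptor, read 1.25, 1.07 and 1.18 on one probe and 0.75, 1.01 and 0.73 on the other. The gene mean of 1.00 ± 0.04 (adjusted p = 0.000213) lay just under the 2-fold limit. Fgf9 (0.31 ± 0.09, adjusted p = 0.0214) and Fgf10 (0.27 ± 0.09, adjusted p = 0.0339) did not pass without any 1 of the arrays. Fgf4, known from early embryos, was higher in spleen at -1.12, -0.68 and -0.79 (adjusted p = 0.00156). The other Fgf4 probe gave -0.02 and -0.36 on arrays 1 and 3, with 0 listed for array 2. Fgf18 averaged -0.30 ± 0.02 (adjusted p = 0.0191) over a probe at -0.64 and another at 0.05, and did not pass without any 1 of the arrays (adjusted p up to 0.0868).

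The other 12 FGF ligands lay between -0.15 (Fgf8) and 0.27 (Fgf23) and did not pass. Fgf15, the gut hormone that reaches liver through the portal blood, was among them at -0.06 ± 0.17, as were the stromal factors Fgf7 (0.22 ± 0.02, adjusted p = 0.0506) and Fgf2 (0.09 ± 0.13). The homologous factors Fgf11, Fgf12, Fgf13 and Fgf14, which stay inside the cell, lay between -0.07 and 0.14 and did not pass.

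Of the receptors, Fgfr4, the hepatocyte receptor through which Fgf15 restrains bile acid synthesis, was 1.56-fold higher in liver. Its probes read 0.72, 1.03 and 0.86, and 0.19, 0.70 and 0.32 (gene mean 0.64 ± 0.21, adjusted p = 0.00418). Fgfr3 at 0.31 ± 0.06 and Fgfr2 at 0.29 ± 0.15 passed (adjusted p = 0.0188 and 0.0387), but not without any 1 of the arrays. The Fgfr3 value averages a probe at 0.55 and another at 0.07. Fgfr1 averaged -0.10 ± 0.13 and did not pass, and its 3 probes lay on both sides of 0, at -0.76, 0.11 and 0.35. Fgfr1op2, taken by its name, was 2.35-fold higher in spleen (-1.33, -1.03 and -1.33, adjusted p = 0.000243).

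Of the 44 genes with several measured probes, 37 had probe means less than 0.5 apart on the log2 scale, and the median gap was 0.21. The median absolute log2 ratio of these 44 genes was only 0.17, so a gap under 0.5 does not show that their probes agree. In 3 genes, Tgfbr2, Fgfr1 and Smad6, the gap was 2-fold or more. For these the probes cannot be read as 1 value per gene. A probe missing an array was left out of these gaps, so Dll1, with probes at -1.93 and -0.75 on array 1, is not among the 44.

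**Figure D3:**
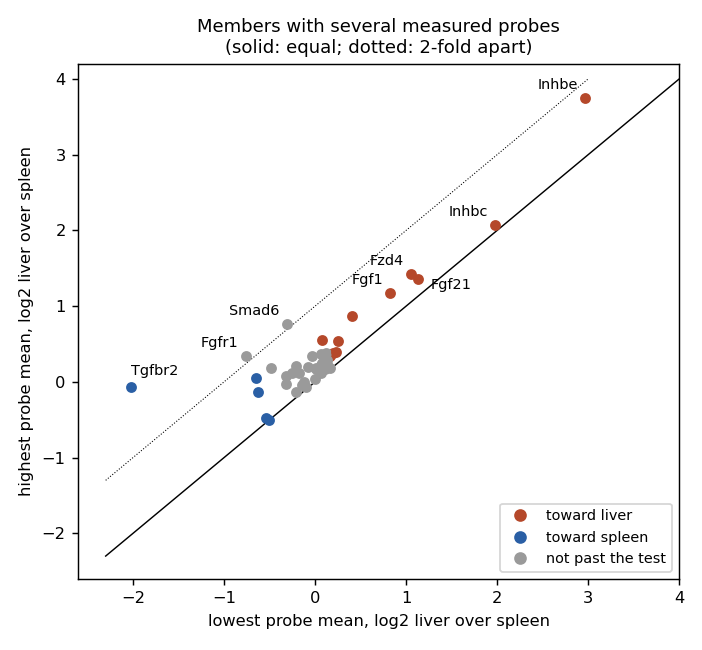
Lowest against highest probe mean (log2 ratio, liver over spleen) for the 44 members with several measured probes, coloured by limma's test on the gene mean. Points on the solid line have equal probes, and Tgfbr2, Fgfr1 and Smad6 lie beyond the dotted 2-fold line.

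Other genes of the 4 pathways, from lists of 172 names chosen with earlier results of these data known, were measured for 111 genes. Of these, 26 passed toward liver and 35 toward spleen (55.0% together, near the 52.8% of all genes). By pathway, 9 and 9 of 37 Wnt genes, 7 and 14 of 32 TGF-beta and BMP genes, 5 and 9 of 26 Notch genes and 5 and 3 of 16 FGF genes passed toward liver and spleen. Without array 1, 2 or 3 the FGF counts were 2, 2 and 3 toward liver and 2, 1 and 3 toward spleen.

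**Figure D4:**
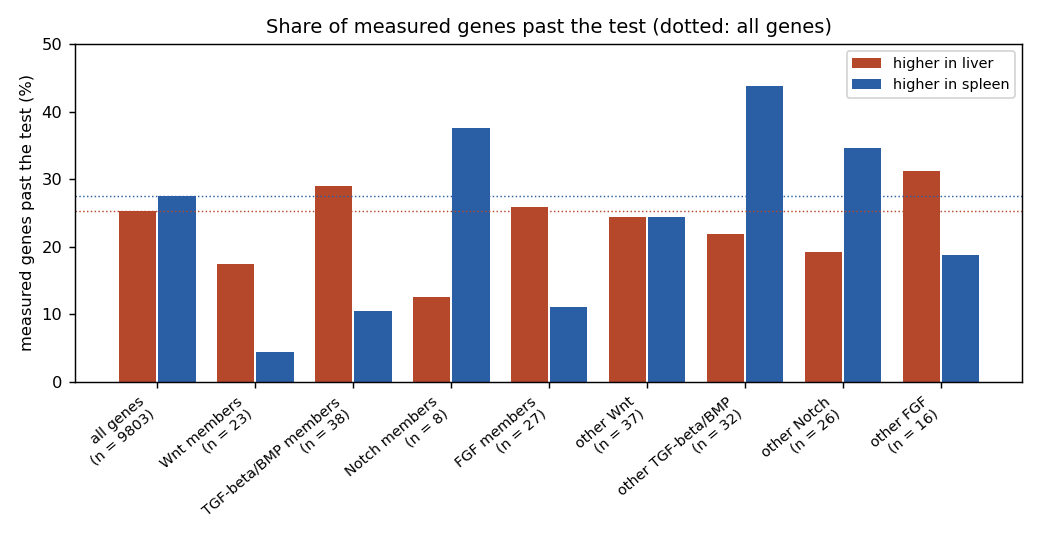
Percentage of measured genes past the test toward liver (red) and toward spleen (blue) by limma's test, for all 9803 genes, the members of each pathway and the other genes of each pathway; bars start at 0 and dotted lines repeat the values of all genes. Wnt members have the lowest bars together, and the members' bars toward spleen lie under the dotted line except for Notch.

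Around the FGF receptors, Klb, the beta-Klotho co-receptor that works with Fgfr4, was 6.65-fold higher in liver, at 2.83, 2.64 and 2.74 (adjusted p = 1.41e-05). The feedback inhibitor Spry1 averaged 0.44 ± 0.08 (adjusted p = 0.0062). Spry4, at 0.27, and Etv5, an FGF-responsive transcription factor, at 0.26, passed with all arrays but not without any 1 of them, and Gab1, a docking protein of FGF receptor signalling, at 0.30, not without array 1 or array 2 (adjusted p up to 0.128). The feedback genes Dusp6 (-0.04) and Spry2 (0.13) did not pass. Toward spleen the Ras exchange factor Sos2 was at -0.51 ± 0.16 (adjusted p = 0.0061), the FGF binding protein Fgfbp3 at -0.48 and the phosphatase Ptpn11 at -0.28. Fgfbp3 did not pass without array 2 (adjusted p = 0.0527), nor Ptpn11 without any 1 of the arrays.

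Among TGF-beta and BMP genes, Hamp, which encodes the iron hormone hepcidin and is a known BMP target of hepatocytes, was 6.45-fold higher in liver, at 2.85, 2.66 and 2.56 (adjusted p = 1.87e-05). Decorin (Dcn), a matrix proteoglycan that binds TGF-beta, averaged 1.52 ± 0.09, and follistatin (Fst), which traps activins, 0.83 ± 0.27 (adjusted p = 5.94e-05 and 0.00256). Toward spleen stood the secreted protein Fstl1 at -1.58 ± 0.04, the kinase partner Tab1 at -1.40 ± 0.16 and the latent TGF-beta binding protein Ltbp2 at -0.92 ± 0.26, with adjusted p-values from 4.35e-05 to 0.00165. Of the Id genes, common BMP targets, Id1 at -0.44 and Id4 at -0.66 were higher in spleen, and Id2 at 0.18 and Id3 at -0.24 did not pass.

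Among Wnt genes, Sfrp1, a secreted Wnt antagonist, read 2.70, 1.63 and 1.48 (mean 1.94 ± 0.67, adjusted p = 0.00159). The beta-catenin inhibitor Ctnnbip1 averaged 0.65 ± 0.16 and the corepressor Tle1 0.54 ± 0.22. Toward spleen, Rspo1, which strengthens Wnt signals, read -1.48, -2.27 and -1.33 (mean -1.69 ± 0.50, adjusted p = 0.00105). Rnf43, which removes Frizzleds from the cell surface, averaged -1.32 ± 0.09 and the decoy receptor Frzb -0.96 ± 0.52 (adjusted p = 0.000103 and 0.0102). Of the Wnt targets known from the hepatocytes around the central vein, Lgr5 was at 0.50 ± 0.13 (adjusted p = 0.005) and Axin2 at -0.10 ± 0.15, which did not pass. The Lgr5 probes stood at 0.26 and 0.75, and the Axin2 probes on both sides of 0, at -0.44 and 0.24. Beta-catenin itself (Ctnnb1) read -0.07 ± 0.09.

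Among Notch genes, Psen2, a catalytic subunit of the protease that frees the Notch fragment, was 3.50-fold higher in liver (1.81 ± 0.13), and Hes6, of the Hes family of repressors, averaged 1.37 ± 0.13. Furin, which processes Notch receptors among other proteins, averaged 0.62 ± 0.06. Toward spleen were the sheddase Adam17 on both of its probes, the coactivator Snw1 at -1.05 ± 0.08 and Dtx2, of the Deltex family, at -0.91 ± 0.17. The Adam17 probes lay more than 2-fold apart, at -1.90 and -0.86, so the gene mean of -1.38 describes neither. The Notch targets Hes5 and Nrarp were at -0.66 ± 0.10 and -0.65 ± 0.21 (adjusted p = 0.0014 and 0.00408), while Hey1 (0.22), Hey2 (-0.21) and Heyl (0.09) did not pass. Rbpj averaged -0.47 ± 0.15 (adjusted p = 0.0078). Of the 6 measured genes listed as Notch targets, 2 thus passed toward spleen and 1, Hes6, toward liver. These are 3 of 6, where 52.8% of all genes passed. Hes6 counts as a target by the list only, and whether Notch acts on it was not tested. The 26 other Notch genes had a median of -0.0014.

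**Figure D5:**
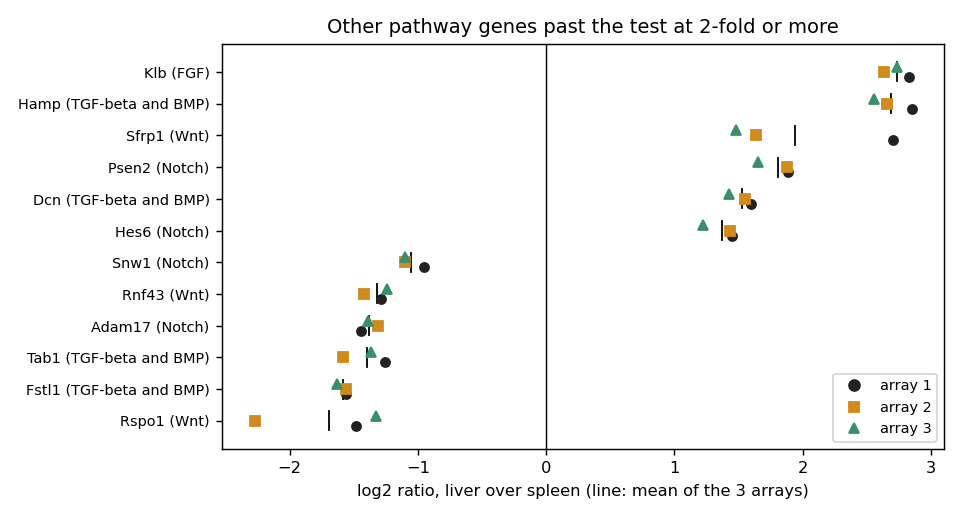
Log2 ratio of liver over spleen on each of the 3 arrays (symbols, with a line at the mean) for the 12 other pathway genes past the test at 2-fold or more. Klb and Hamp stand highest at 2.73 and 2.69, and Rspo1 lowest at -1.69; the Adam17 points average 2 probes more than 2-fold apart.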

How the data were processed

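Mouse liver and spleen RNA were compared on 3 two-colour arrays. The deposited table gives a log2 ratio per probe and array; how the authors corrected background and normalized dyes is not given in the sources used here. The log base was read from the values: the highest is 6.64 on every array, the log2 of 100. The column medians are 0 when exact 0 is included. Those of the measured values are 0.02, 0.04 and 0.01 on arrays 1, 2 and 3. An exact 0, found for 1098 to 1414 probes per array, was taken as no measurement. Arrays have no read depth, and their number limits the precision.

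Probes were named from the platform annotation: 13738 had 1 symbol, 52 several and 2491 none. Of those with 1 symbol, 13694 were found by Entrez number in a RefSeq table and 0 changed symbol; 1 probe with several symbols named a gene of the rule and was left out. Log ratios of a gene's probes measured on all 3 arrays were averaged, giving 9803 genes. The mean of each gene was compared with 0 by limma 3.58.1 under R 4.3.3 (intercept-only fit, 3.38 prior degrees of freedom, two-sided, Benjamini-Hochberg over all genes); the fit was tested on simulated data. Promoter letters come from RefSeq (GRCm38.p6). Full statistics were given for members at 2-fold or more and the largest in each role, and the lists' 3 largest in each direction were named; other named genes were chosen after their values were seen. The members and lists were chosen with earlier results of these data known. The alternatives were leaving out an array, probes in place of genes, single-probe genes, probes on at least 2 arrays, exact 0 kept, centring, scaling and robust moderation.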

Additional observations from a re-analysis of the deposited data

How the results depend on the processing

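Counts of members past the test fell when an array was left out and when genes with several probes were left out. Without an array the share of all genes past the test also fell. It was 18.6% to 22.0% toward liver and 21.5% to 25.7% toward spleen, against 25.3% and 27.4% with all arrays. Leaving out 1 array in turn gave 10 to 15 members toward liver (23 with all arrays), 2 to 4 of the Wnt pathway, 4 to 8 of TGF-beta and BMP, 0 of Notch and 3 of FGF; toward spleen it gave 0 to 1 Wnt members. Among other FGF genes the same gave 2 to 3 toward liver and 1 to 3 toward spleen. Of the 34 members past the test, 18 did not pass without at least 1 array, 16 passed under every alternative fitted on genes that holds them, and 0 reversed. In the fit on probes, 1 probe of these 16 genes did not pass, that of Tgfbr2 at -0.07 (adjusted p = 0.553).

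Genes with a single measured probe, which are 52 of the 96 members, gave 10 members toward liver (4 TGF-beta and BMP, 3 FGF, 0 Notch, and 1 at 2-fold or more) and 6 toward spleen (1 TGF-beta and BMP, 0 Wnt), with 3 other Notch and 3 other FGF genes toward liver; fewer genes enter that fit. In the fit on probes, a gene was counted if at least 1 of its probes passed, so that Fgfr1 counted in both directions. That fit gave 5 FGF members and 5 other FGF genes toward spleen, each against 3 in the fit on genes. With exact 0 kept as a ratio of 0, 7 TGF-beta and BMP members passed toward liver, against 11. For these 3 alternatives the other counts stayed within 1.5 times, as did all counts with probes on at least 2 arrays, centring, scaling and robust moderation.

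No paired analysis was possible because there is 1 group of arrays and each ratio already pairs the tissues. With 3 arrays of 1 pair of RNAs, no dye swap and no intensities, signal over background could not be judged, and a mean within about 0.3 of 0 on the log2 scale was near the limit of what passed.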
